A study of Mus musculus with 12 samples.

Results

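The genes examined were 9 that mark resident macrophages of tissues: C1qa, C1qb and C1qc, which encode the chains of complement C1q, and Axl, Mertk, Adgre1, Mrc1, Cd5l and Spic. They were taken by gene symbol from the deposited table of read counts, and 9 of 9 were among its 12199 genes. RNA came from bone marrow of C57BL/6 mice, one library per mouse, and the labels speak of mononuclear cells where the methods of the study speak of whole marrow. There were 3 WT libraries, 3 DF libraries (Dnmt3a flox/+ with Mx-Cre and Flt3 ITD/+), 3 TF libraries (Tet2 +/- with Flt3 ITD/+) and 2 TFD libraries, which carry the alleles of both. TFD replicate 3 was not analysed here. Mice of all groups, WT included, had received poly(I:C) as young adults, an interferon inducer that switches on Mx-Cre. The Flt3 ITD allele was shared by all 3 mutant groups, so no comparison with WT separates it from the loss of Tet2 or Dnmt3a. Mx-Cre acts in many cell types, macrophages and cells outside the blood lineages among them, whereas the Tet2 and Flt3 alleles were present in every cell from conception.

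Marrow macrophages clear dying cells and nuclei expelled by maturing red cell precursors, and they return the iron of old red cells to the blood. C1q binds to immune complexes and dying cells, starts the classical complement cascade and is made largely by macrophages and related cells. Macrophages sitting at the centre of erythroblastic islands, where red cell precursors mature, carry several of the genes examined here, and monocytes that newly enter a tissue carry few of them.

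Library totals over the deposited genes ranged from 8274153 to 15900904 reads, and 12175 genes were tested. Neutrophil markers, which whole marrow holds in plenty, summed to at least 22260 CPM (read counts scaled to library size) in each library. Summed over all exons, which does not separate the alleles, Tet2 did not fall in TF (log2 fold change 0.21 against WT, adjusted p of 0.330) or TFD (0.25, adjusted p of 0.318). For Dnmt3a the value was −0.15 in DF (adjusted p of 0.578, and slightly above 0 in 2 of the alternative fits) and 0.29 in TFD (adjusted p of 0.382), while Flt3 rose by 0.93 in DF, 1.38 in TF and 1.94 in TFD. Leaving out TFD replicate 2 gave 1.27 for the last of these, and the DF call was lost without WT replicate 2, WT replicate 3 or DF replicate 1 (adjusted p up to 0.0936). Library TF replicate 3 stood apart from TF replicates 1 and 2 in erythroid markers (1735 against 613 and 744 CPM) and B cell markers (81.9 against 20.4 and 23.2 CPM). Because 7 of the 9 genes were also far higher in that library, the changes of the 9 genes in TF are given with and without it.

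The C1q genes lie side by side on the minus strand of chromosome 4 of mm10, C1qb from 136880145 to 136886177, C1qc from 136889802 to 136892914 and C1qa from 136895916 to 136898844. All 3 fell in DF marrow, by 3.98-fold to 5.06-fold. C1qa measured 18.6, 10.6 and 20.8 CPM in WT replicates 1 to 3, and 2.54, 3.80 and 3.56 CPM in DF. It measured 7.19, 8.92 and 23.5 CPM in TF, and 8.01 and 5.61 CPM in TFD. DF and TFD libraries all lay below WT, and DF lay below every other library, whereas TF replicate 3 lay above the whole WT range. C1qb measured 21.3, 16.3 and 25.5 CPM in WT, 4.68, 5.34 and 5.84 CPM in DF, 9.86, 10.1 and 24.4 CPM in TF, and 10.8 and 7.40 CPM in TFD. C1qc measured 19.95, 14.97 and 18.7 CPM in WT, 4.604, 3.67 and 5.35 CPM in DF, 8.16, 11.4 and 23.4 CPM in TF, and 10.01 and 5.08 CPM in TFD. C1qb did not overlap between DF and TFD, while C1qc did. In these bulk samples, fewer cells of a type and less RNA per cell cannot be told apart.

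Against WT, the log2 fold change in DF was −2.34 for C1qa (SE 0.42, adjusted p of 0.00101), −1.999 for C1qb (SE 0.33, adjusted p of 0.000557) and −1.99 for C1qc (SE 0.36, adjusted p of 0.00103). In TFD, C1qb fell by 1.201 on the log2 scale (SE 0.36, adjusted p of 0.0255) and C1qc by 1.23 (SE 0.39, adjusted p of 0.0341). C1qa, at −1.29, stayed just outside the threshold there (SE 0.45, adjusted p of 0.05003). It passed in 10 of 19 alternative fits, among them DESeq2 (adjusted p of 0.0128). Without TFD replicate 2 the C1qb and C1qc values in TFD were −0.96 (adjusted p of 0.149) and −0.84 (adjusted p of 0.207), and neither passed. They were also lost without WT replicate 1 (adjusted p of 0.0506 and 0.0787) or without WT replicate 3 (0.0789 and 0.0742). In TF with 3 libraries the values were −0.35 for C1qa (adjusted p of 0.495), −0.52 for C1qb (adjusted p of 0.208) and −0.33 for C1qc (adjusted p of 0.458). Without TF replicate 3 they became −1.06 (adjusted p of 0.00874), −1.08 (adjusted p of 0.00175) and −0.88 (adjusted p of 0.0191), and all 3 passed.

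The sum of the chains moved more than their proportions did. Their summed level per gene length ran from 39.4 to 60.98 RPKM (read counts scaled to library size and gene length) in WT and from 11.1 to 13.9 RPKM in DF. It was 23.7, 28.6 and 66.9 RPKM in TF and 27.1 and 17.0 RPKM in TFD. Of that sum C1qb made up between 33.4% and 41.9% over the 11 libraries (38.3% ± 2.69, SD). C1qc made up 33.7% ± 3.69 and C1qa 28.0% ± 3.51. The share of C1qa was 24.7% ± 4.13 (SD, n = 3) in DF and 29.0% ± 3.54 (n = 3) in WT, with overlapping libraries. The share of C1qb was 39.6% to 41.9% in DF, above its 35.7% to 39.4% in WT, a difference that was not tested.

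The sequences before the start sites of a pair of C1q genes, which moved together, and of Cd5l, which had the lowest fold change in each mutant group, and Mrc1, which had the highest in TF and TFD, are shown here for comparison. Each comes from the 250 bases before the RefSeq start on build GRCm38.p6, read 5′ to 3′ on the strand of the gene. In the GENCODE annotation an exon already covers the last 151 of these bases for C1qc and the last 22 for Mrc1, so those are not printed, which leaves 99 and 228 bases. The windows are chr4:136886201-136886450 (minus strand) for C1qb, chr4:136893066-136893164 (minus strand) for C1qc, chr3:87357631-87357880 (plus strand) for Cd5l and chr2:14229164-14229391 (plus strand) for Mrc1. Capitals mark 3 short motifs searched on both strands: the core bound by the ETS factors PU.1 and Spi-C (GAGGAA, or TTCCTC on the other strand), the MAF core (TGCTGA or TCAGCA) and the nuclear receptor core (AGGTCA or TGACCT).
C1qb: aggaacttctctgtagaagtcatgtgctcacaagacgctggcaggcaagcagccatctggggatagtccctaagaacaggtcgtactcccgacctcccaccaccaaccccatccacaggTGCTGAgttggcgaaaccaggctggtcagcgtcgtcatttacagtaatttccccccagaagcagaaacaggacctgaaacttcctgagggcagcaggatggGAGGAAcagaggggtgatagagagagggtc
C1qc: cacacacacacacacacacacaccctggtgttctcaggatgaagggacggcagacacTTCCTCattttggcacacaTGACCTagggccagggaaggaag
Cd5l: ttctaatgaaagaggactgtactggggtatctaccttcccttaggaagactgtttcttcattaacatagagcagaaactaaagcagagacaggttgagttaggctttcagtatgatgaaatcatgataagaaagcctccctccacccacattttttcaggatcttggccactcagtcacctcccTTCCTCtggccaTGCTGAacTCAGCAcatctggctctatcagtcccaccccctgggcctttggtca
Mrc1: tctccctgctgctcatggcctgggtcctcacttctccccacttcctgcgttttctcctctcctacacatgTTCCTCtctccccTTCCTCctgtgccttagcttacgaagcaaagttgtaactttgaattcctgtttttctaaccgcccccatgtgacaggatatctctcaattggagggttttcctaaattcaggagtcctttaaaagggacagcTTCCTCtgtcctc

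RefSeq windows were at hand for 7 of the 9 genes, C1qa and Adgre1 being the exceptions. The motifs were counted over the 250 bases before each RefSeq start, exon parts included, and none overlapped. The ETS core was found in 5 of the 7 windows, against 23.25% of all 32851 windows of this length. The MAF core was found in 3 of 7, against 16.1% of all windows, and the nuclear receptor core in 1 of 7, against 14.0%. Mrc1 held the ETS core 3 times and neither of the others, and Mertk held none of the 3. Genes that fell (C1qb, C1qc, Cd5l) and a gene that rose (Mrc1) both had the ETS core, so its presence did not separate the directions. A match to these letters is not a measured binding site.

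**Figure D1:**
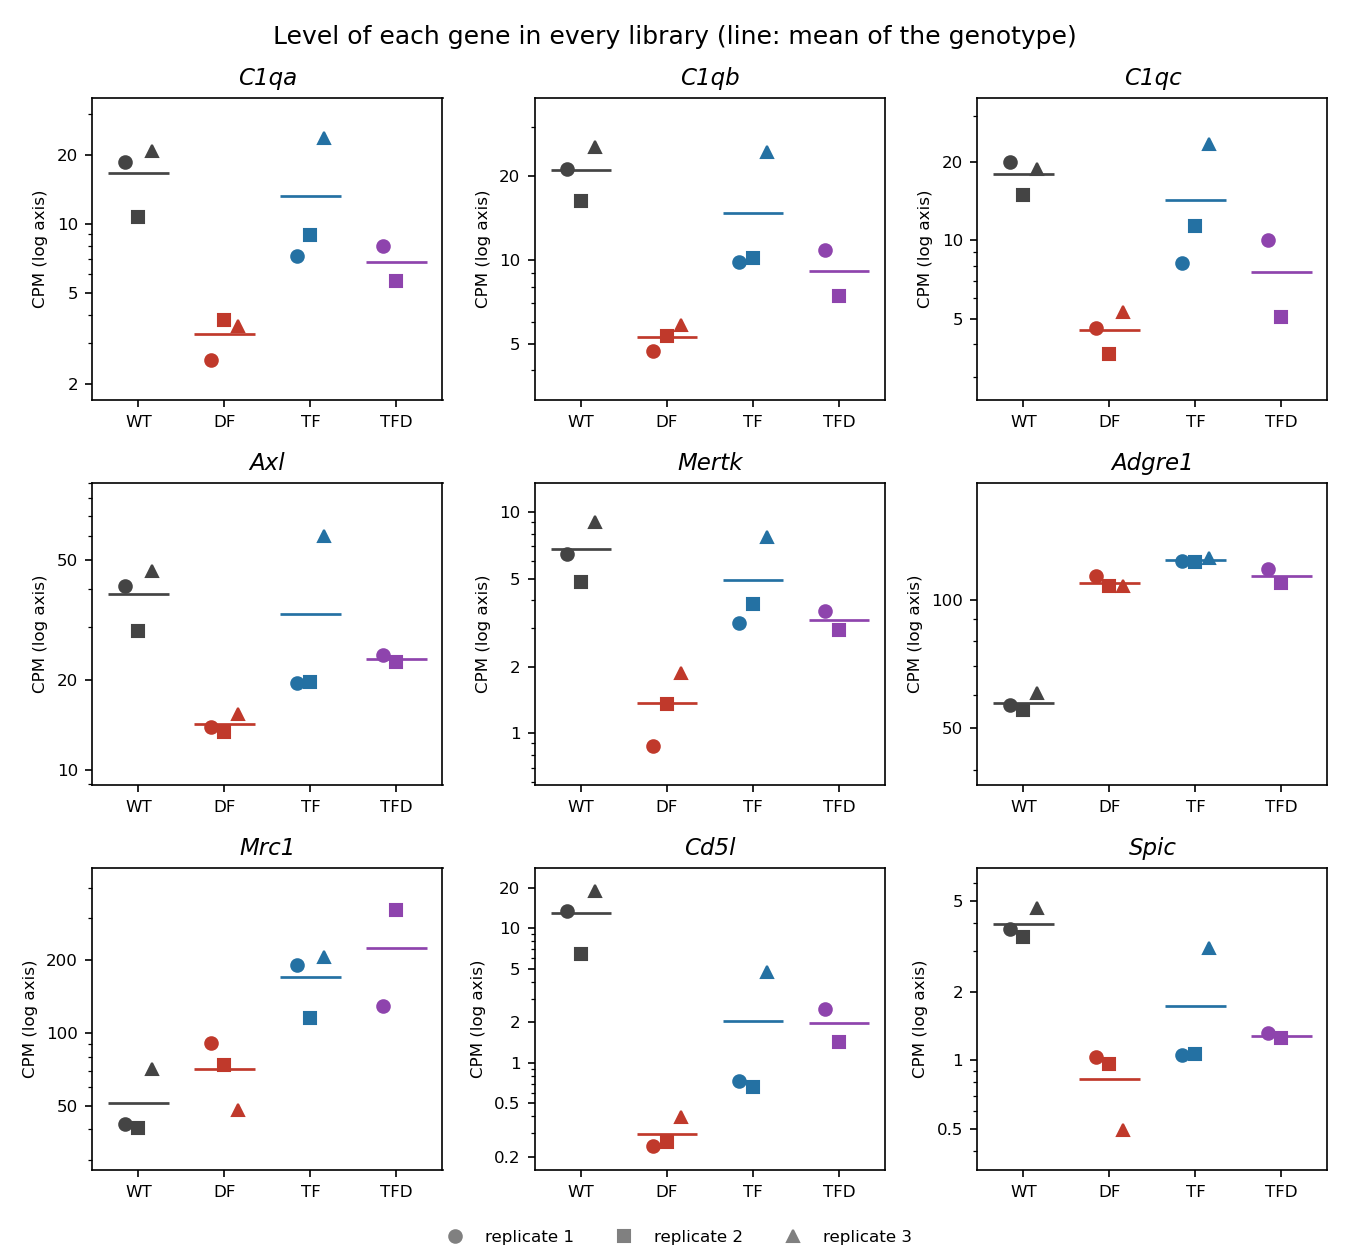
Level of each gene in CPM on a log axis in the 3 WT, 3 DF, 3 TF and 2 TFD libraries, with replicates 1 to 3 as circle, square and triangle and the mean of each genotype as a line. The triangle of TF lies near or above WT for C1qa, C1qb, C1qc, Axl and Mertk, while Adgre1 lies between 55.2 and 60.5 CPM in WT and between 108 and 125 CPM in every mutant library.

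Axl and Mertk encode receptor tyrosine kinases of the TAM family, which recognize dying cells through the bridging ligands Gas6 and protein S. Axl lies on chromosome 7 from 25756500 to 25788733 and Mertk on chromosome 2 from 128698997 to 128802188, where an antisense gene (Gm14011) overlaps Mertk in the annotation and shared reads cannot be judged. Axl measured 40.8, 29.0 and 45.9 CPM in WT and 14.0, 13.4 and 15.3 CPM in DF. In TF it measured 19.6, 19.6 and 60.02 CPM, and in TFD 24.1 and 22.9 CPM. Here TF replicate 3 held the highest value of all 11 libraries and TF replicates 1 and 2 lay below every WT and TFD library. Mertk was scarcer, with 6.49, 4.83 and 9.04 CPM in WT and 0.873, 1.35 and 1.88 CPM in DF. It measured 3.15, 3.85 and 7.75 CPM in TF, and 3.57 and 2.94 CPM in TFD. DF libraries held 11 to 21 Mertk reads each and WT libraries 39 to 101.

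Both receptors fell in DF, Axl by 1.45 on the log2 scale (SE 0.36, adjusted p of 0.00746) and Mertk by 2.33 (SE 0.40, adjusted p of 0.000672). In TFD, Axl was at −0.72 (adjusted p of 0.201) and Mertk at −1.06 (adjusted p of 0.0723), and neither passed. The 95% interval of the TFD difference ran from −1.57 to 0.13 for Axl and from −1.94 to −0.18 for Mertk. In TF the values were −0.23 for Axl (adjusted p of 0.628) and −0.48 for Mertk (adjusted p of 0.303). Leaving out TF replicate 3 moved Axl to −0.98 (adjusted p of 0.000701) and Mertk to −0.97 (adjusted p of 0.0295) in TF. With that library left out of the shared model, the TFD values of −0.72 and −1.06 did not move, but their adjusted p fell to 0.00594 for Axl and 0.0220 for Mertk. Per length, Axl exceeded Mertk in every library, by a ratio of 3.55 to 4.40 in WT and 5.70 to 11.2 in DF, ranges that did not overlap.

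Cd5l and Spic belong to the macrophages that recycle iron. CD5L is a secreted protein that blocks lipid synthesis and death in macrophages, and Spi-C is the transcription factor that red pulp and marrow iron-recycling macrophages need. Cd5l (chromosome 3, 87357881 to 87371074) had the largest change of the 9 genes. It measured 13.6, 6.44 and 18.8 CPM in WT, and 0.238, 0.257 and 0.396 CPM in DF, which is 3, 4 and 4 reads. In TF it measured 0.727, 0.655 and 4.74 CPM, and in TFD 2.50 and 1.43 CPM. No mutant library reached the lowest WT library. Pooled over libraries and scaled to their totals, WT held 47.2 times the Cd5l of DF (427 against 11 reads, 95% counting interval 26.1 to 95.3). The same ratio was 7.003 for TF (5.42 to 9.17) and 6.60 for TFD (4.99 to 8.89), where the intervals cover counting error only. The fitted log2 fold change was −5.44 in DF (SE 0.77, adjusted p of 0.000179), −2.70 in TF (SE 0.59, adjusted p of 0.00393) and −2.69 in TFD (SE 0.68, adjusted p of 0.0112). Without TF replicate 3 the TF value was −4.22 (adjusted p of 2.30e-05), and without TFD replicate 2 the TFD value was −2.37 (adjusted p of 0.0771).

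Spic (chromosome 10, 88675270 to 88683023) measured 3.78, 3.47 and 4.66 CPM in WT and 1.03, 0.965 and 0.495 CPM in DF. In TF it measured 1.05, 1.06 and 3.10 CPM, and in TFD 1.31 and 1.25 CPM. All 8 mutant libraries lay below the 3 WT libraries, though 7 of them held only 5 to 21 reads of this gene. Spic fell by 2.21 on the log2 scale in DF (SE 0.43, adjusted p of 0.00171), by 1.21 in TF (SE 0.40, adjusted p of 0.0334) and by 1.63 in TFD (SE 0.47, adjusted p of 0.0218). The TF and TFD calls for Spic were close to the threshold. In TF the call was lost in 6 of 19 alternative fits (adjusted p up to 0.128). In TFD the replicate block gave −1.44 (adjusted p of 0.0509), and the value was −1.67 without TFD replicate 1 and −1.59 without TFD replicate 2. With WT replicate 3 left out the TF value was −1.09 (adjusted p of 0.0993) and the TFD value −1.495 (adjusted p of 0.0649), and with TF replicate 3 left out they were −1.90 (adjusted p of 0.000920) and −1.63 (adjusted p of 0.00233).

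Adgre1 and Mrc1 went the other way. Adgre1 encodes a surface antigen of most mouse macrophages that monocytes and eosinophils also carry, and lies on chromosome 17 from 57358686 to 57483529. It measured 56.7, 55.2 and 60.5 CPM in WT, 114, 108 and 108 CPM in DF, 124, 123 and 125 CPM in TF, and 118 and 109.8 CPM in TFD. The libraries of a genotype differed little, and TF replicate 3 was here no different from the other two. Adgre1 rose by 0.93 on the log2 scale in DF (SE 0.09, adjusted p of 1.57e-05), by 1.11 in TF (SE 0.09, adjusted p of 3.94e-06) and by 0.99 in TFD (SE 0.10, adjusted p of 2.24e-05). Mrc1 encodes the mannose receptor CD206, which takes up glycoproteins, and lies on chromosome 2 from 14229414 to 14332023. It measured 42.3, 40.7 and 71.4 CPM in WT, 90.8, 73.8 and 48.1 CPM in DF, 191, 115 and 207 CPM in TF, and 129 and 322 CPM in TFD. DF overlapped WT, while each TF and TFD library lay above both. Mrc1 rose in TF (log2 fold change 1.73, SE 0.35, adjusted p of 0.00248) and in TFD (2.13, SE 0.38, adjusted p of 0.00142), and its value in DF was 0.46 (95% interval −0.29 to 1.21, adjusted p of 0.310). Without TFD replicate 2 the TFD value of Mrc1 was 1.33 (adjusted p of 0.0244).

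Counted over the 9 genes, 1 was called higher and 7 lower in DF than in WT, where 21.0% of all tested genes were called higher and 16.6% lower. In TF, 2 were called higher and 2 lower, against 19.0% and 15.6% of all genes. In TFD, 2 were called higher and 4 lower, against 14.7% and 11.6% of all genes. The median log2 fold change of the 9 was −1.999 in DF, −0.35 in TF and −1.201 in TFD, while the median over all tested genes was 0.055, 0.018 and 0.007. The 3 comparisons share the WT libraries and are not independent. The 8 calls in DF held in each of 19 alternative fits, as did those of Adgre1 in all 3 mutant groups and of Mrc1 and Cd5l in TF. The calls for TFD ranged from 2 without TFD replicate 2 and 3 without WT replicate 3 to 9 without TF replicate 3, fits in which 19.7%, 21.0% and 28.6% of all genes were called in either direction.

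**Figure D2:**
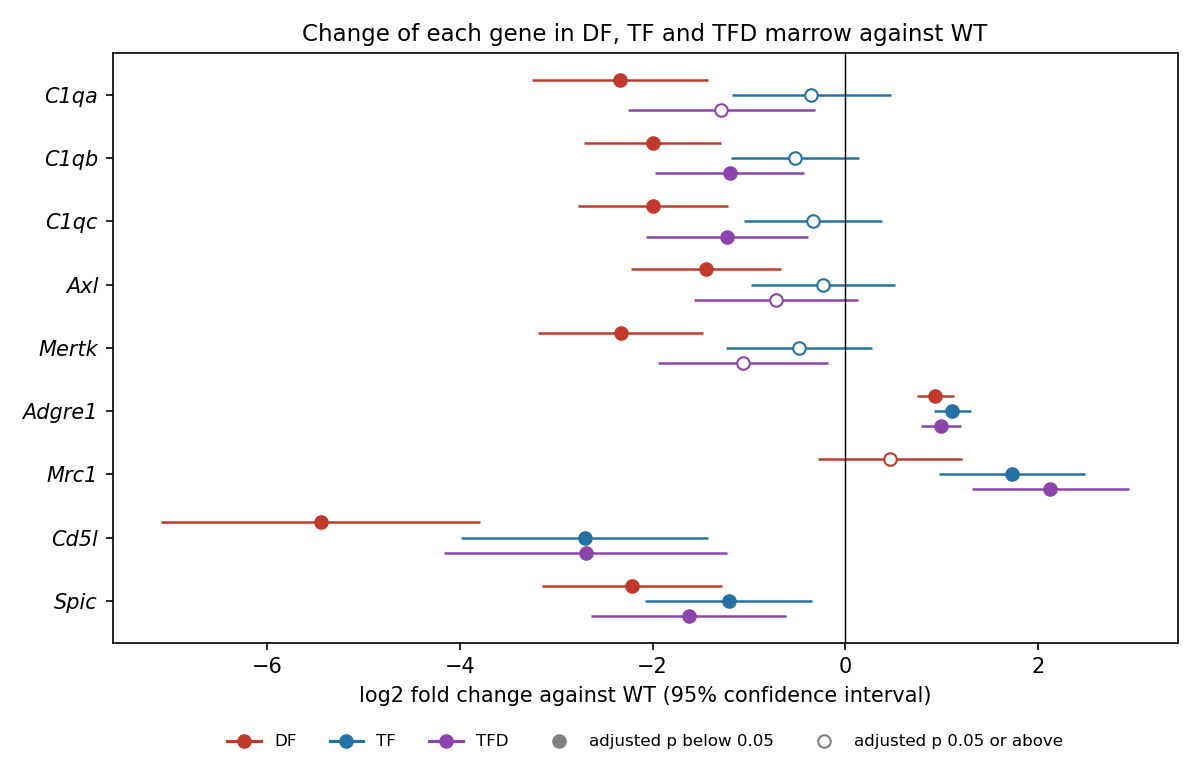
Log2 fold change of each gene in DF, TF and TFD against WT (horizontal axis) with its 95% confidence interval, filled where the adjusted p was below 0.05. Cd5l lies farthest to the left, at −5.44 in DF, and Adgre1 lies between 0.93 and 1.11 with the narrowest intervals, while C1qa, C1qb, C1qc, Axl and Mertk in TF have intervals that cross 0.

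How far the TF group resembled WT rested on a single library. With TF replicate 3 left out, 9 of the 9 genes were called in TF, 2 higher and 7 lower, against 4 with it. The share of all genes called hardly moved, with 19.0% called higher and 16.6% lower in that fit. Of the 5 genes added to the calls, C1qb moved from −0.52 to −1.08 and Axl from −0.23 to −0.98. Adgre1 moved only from 1.11 to 1.10, and Mrc1 from 1.73 to 1.57. Without TF replicate 1 or 2 instead, Axl in TF was at 0.038 and 0.035 and changed sign. TF replicate 3 was also 1 of 3 libraries with at least 10000 reads of Xist, beside WT replicate 3 and TFD replicate 2. With a model term for those libraries, 4 of the 9 genes were called in TF, as before (37.8% of all genes), and 9 in DF (34.4% of all genes), where Mrc1 reached 0.78 (adjusted p of 0.0287).

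**Figure D3:**
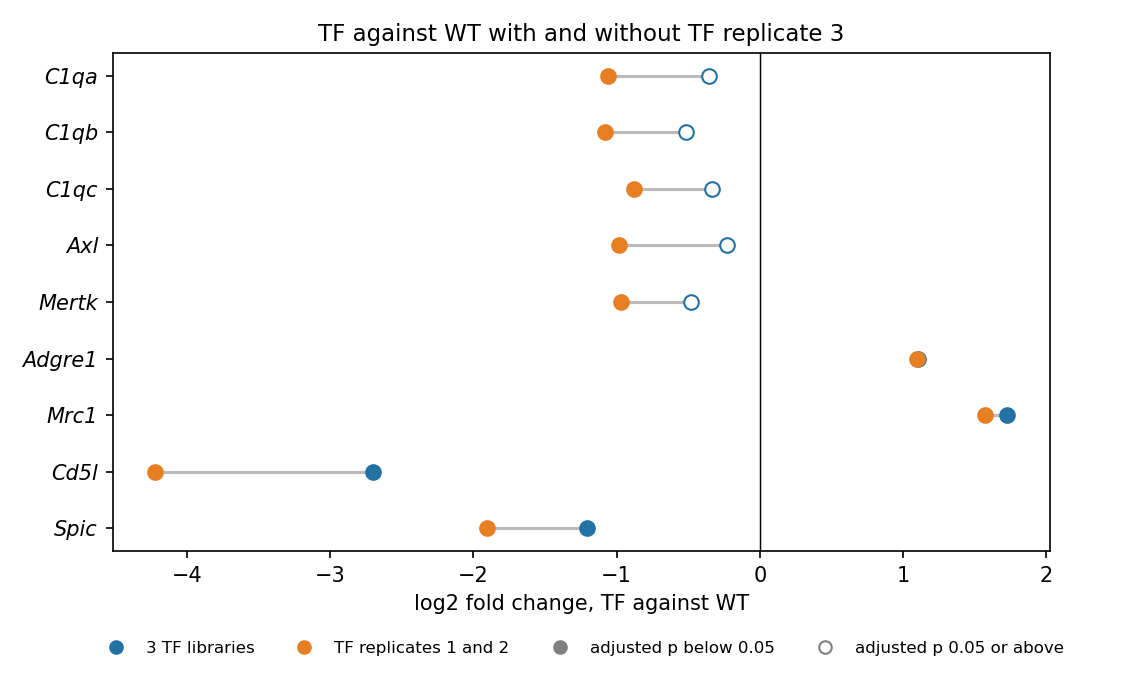
Log2 fold change of each gene in TF against WT with all 3 TF libraries (blue) and with TF replicates 1 and 2 only (orange), filled where the adjusted p was below 0.05. Without TF replicate 3 all 7 genes below 0 move farther left, Cd5l from −2.70 to −4.22, and Adgre1 stays in place at 1.11 and 1.10.

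Between the mutant groups, all 9 genes were lower in DF than in TF, and 5 were called, against 4.27% of all genes called lower and 1.67% higher. These were C1qa (−1.99, SE 0.42, adjusted p of 0.0187), C1qb (−1.48, SE 0.33, adjusted p of 0.0225), C1qc (−1.66, SE 0.36, adjusted p of 0.0200), Mertk (−1.85, SE 0.40, adjusted p of 0.0196) and Mrc1 (−1.27, SE 0.34, adjusted p of 0.0483). The call of Mrc1 was lost in 8 of 19 alternative fits, with the replicate block (adjusted p of 0.0791) and without WT replicate 1, WT replicate 2, TF replicate 1, TF replicate 3 or any 1 DF library (adjusted p of 0.0575 to 0.172). The values were −1.21 for Axl (adjusted p of 0.0678), −2.74 for Cd5l (adjusted p of 0.0876), −1.01 for Spic (adjusted p of 0.251) and −0.18 for Adgre1 (adjusted p of 0.296). No library of DF overlapped one of TF for any of the 9, where DF lay below TF without overlap in 12.1% of all genes and above it in 13.7%. The 5 calls depended on single libraries, as calls over all genes did in this comparison. None was left without DF replicate 1 (3.16% of all genes called) or without DF replicate 2 (1.39%), 1 without DF replicate 3 (2.07%), and 3 without TF replicate 3 (2.80%), namely C1qa, C1qb and C1qc. The differences in that last fit were −0.47 for Axl (adjusted p of 0.225), −1.23 for Cd5l (adjusted p of 0.551) and −0.31 for Spic (adjusted p of 0.858).

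All 9 genes also had lower values in DF than in TFD, from −2.75 for Cd5l to −0.06 for Adgre1, with a median of −0.80. None was called by edgeR's quasi-likelihood test, and 5 had an unadjusted p under 0.05. Of all 12175 genes, 0% were called higher and 0% lower in that comparison, although 1727 had an unadjusted p under 0.05. DESeq2 called 258 genes, of which 1 was among the 9. A fit of only DF and TFD called 2 of the 9 and 1.11% of all genes. Without TF replicate 3, 1.88% of all genes were called and 3 of the 9, namely Axl (−0.73, adjusted p of 0.0490), Mrc1 (−1.66, adjusted p of 0.0296) and Cd5l (−2.76, adjusted p of 0.0305). Between TF and TFD none of the 9 was called in any fit, where 0.00821% of all genes were called higher and 0.00821% lower in TF, 1 of the 9 (C1qc) had an unadjusted p under 0.05 and DESeq2 called 131 of all genes. The 95% intervals of that difference were wide, from −0.03 to 1.90 for C1qa and from −1.51 to 1.496 for Cd5l.

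Per gene length, the order of the 9 genes differed between WT and the mutants. In WT the highest were C1qb (19.8 ± 4.33 RPKM, SD, n = 3), Adgre1 (17.7 ± 0.845), C1qc (17.0 ± 2.46) and C1qa (15.4 ± 4.92). Mrc1 (9.68 ± 3.25), Axl (7.59 ± 1.71) and Cd5l (6.35 ± 3.05) followed. Each gene overlapped its neighbour in this order down to Spic (3.14 ± 0.488), which lay above Mertk (1.91 ± 0.598) without overlap. In DF, Adgre1 stood alone at 33.8 ± 1.08 RPKM, Mrc1 was next at 13.3 ± 4.04, and the means of the C1q chains lay between 3.05 and 4.98, above Axl at 2.80 ± 0.198. Spic (0.657 ± 0.231) and Mertk (0.385 ± 0.142) overlapped in DF, and Cd5l was last at 0.146 ± 0.0423. Adgre1 overlapped Mrc1 in TF (38.2 ± 0.402 and 32.1 ± 9.18 RPKM) and in TFD (35.2 ± 1.87 and 42.4 ± 25.7, n = 2). The ratio of Adgre1 to the mean of the 3 C1q chains was 0.918 to 1.29 in WT, 7.20 to 9.46 in DF, 1.73 to 4.83 in TF and 4.04 to 5.98 in TFD. The ratio of the mean of the C1q chains to Cd5l was 2.20 to 4.16 in WT and 23.8 to 31.7 in DF, so Cd5l fell farther than C1q did.

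How the 9 genes varied together within a genotype rested in part on TF replicate 3. Over the 11 libraries, with the genotype means taken off the log2 CPM values, Pearson's r over the 21 pairs of the 7 falling genes had a median of 0.86. It ran from 0.40 for Mertk with Spic to 0.99 for C1qb with Cd5l. Without TF replicate 3, which was tried after the data were seen, the median was 0.71, with C1qb and Cd5l at 0.95 and C1qa and C1qb at 0.91. The pairs with Spic then ran from −0.37 for Mertk to 0.06 for Axl. Outside these 7, r was 0.46 between C1qb and Adgre1 (0.65 without TF replicate 3), 0.08 between C1qb and Mrc1 (−0.30) and 0.15 between Adgre1 and Mrc1 (0.11). These values are descriptions over libraries that share depth and cell make-up.

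Of the tested genes outside the 9, those whose log2 CPM most resembled the mean of the C1q chains over the 11 libraries were Fech (Pearson's r = 0.98), which encodes the last enzyme of heme synthesis, Slamf1, Fam46c, Slc6a9, a glycine transporter, and Cd4 (each 0.98). Their r stayed at 0.97 with any 1 library left out. Most like Mertk were Tspo2, Epb4.2, which encodes a protein of the red cell membrane skeleton, and Btnl10 (0.98 each). Most like Spic were 8430419L09Rik (0.99), Hebp1, a heme-binding protein (0.98), and Tmem14c, a heme synthesis transporter of mitochondria (0.98). Cd5l came closest to Dnaja4 (0.98), Mfsd2b (0.98) and Plxna1 (0.98), and Axl to March3 (0.98), Tspyl4 (0.97) and Eldr (0.96). The genes nearest to Adgre1 were Cx3cr1, a chemokine receptor of monocytes and macrophages (0.99), P2rx7 (0.99) and Socs2 (0.99). With genotype means taken off, r was 0.93 for Fech with the C1q mean, but for Adgre1 it was 0.76 with Cx3cr1, −0.14 with P2rx7 and 0.26 with Socs2. Mrc1 was nearest to Cbfa2t3 (0.96), Galnt10 (0.95) and Cd2ap (0.95).

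C1q works with the proteases C1r and C1s. Of 7 tested genes of C1 and early complement partners, among which C1ra was the only C1r or C1s gene, 3 rose and none fell in each of DF, TF and TFD. Among all genes 21.0%, 19.0% and 14.7% rose and 16.6%, 15.6% and 11.6% fell. The median log2 fold changes of the 7 were 0.72, 0.30 and 0.78. C1ra, which encodes a C1r protease, and the receptor Lrp1 rose most and on average equally, C1ra by 2.01 in DF (adjusted p of 0.000967), 1.74 in TF (adjusted p of 0.00295) and 1.54 in TFD (adjusted p of 0.0120, and 0.146 without TFD replicate 1). The lowest was C1qbp, a mitochondrial protein that binds C1q in the test tube, at −0.27, −0.22 and −0.20, none of which passed.

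Of 19 TAM ligands and other genes of dying cell uptake, 6 rose and 4 fell in DF, 5 rose and 3 fell in TF, and 6 rose and 3 fell in TFD. Among all genes 21.0%, 19.0% and 14.7% rose and 16.6%, 15.6% and 11.6% fell in these groups. The median of the list was near 0 in each (0.06, 0.02 and −0.08). Lrp1, a large endocytic receptor that also takes up C1q-coated cells, rose by 1.87, 1.48 and 1.93 (adjusted p of 1.22e-05, 5.11e-05 and 1.75e-05). Tgm2, a transglutaminase of phagocytes, fell by 1.77, 1.10 and 1.55 (adjusted p of 0.000757, 0.0123 and 0.00558), and its TF value was −1.501 without TF replicate 3 (adjusted p of 0.000774). The TF call of Tgm2 was lost without TF replicate 1 (adjusted p of 0.0529), and its TFD value lay between −1.855 and −1.316 with 1 library left out.

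Of 14 genes of erythroblastic island and iron-recycling macrophages, 2 rose and 9 fell in DF, with a median of −0.95, and 2 rose and 6 fell in both TF (−0.31) and TFD (−0.72). Among all genes 21.0%, 19.0% and 14.7% rose and 16.6%, 15.6% and 11.6% fell in DF, TF and TFD. Trf, which encodes the iron carrier transferrin, rose by 0.97 in DF, 1.03 in TF and 1.14 in TFD (adjusted p between 0.000729 and 0.000833). Epor, the erythropoietin receptor, which red cell precursors also carry, fell by 4.32, 1.44 and 2.23 (adjusted p of 6.06e-05, 0.0179 and 0.00594), and its TF value was −2.39 without TF replicate 3. The TF call of Epor was lost without WT replicate 3, TF replicate 1 or TF replicate 2 (adjusted p up to 0.0658). The next 4 members were chosen after their values were seen, so they do not stand for the list. Siglec1 (CD169) and Cd163, the receptor for haptoglobin and hemoglobin, are surface receptors of island macrophages. Siglec1 was at −2.68 in DF (adjusted p of 0.000951), −0.13 in TF (adjusted p of 0.836) and −1.0 in TFD (adjusted p of 0.147). Its TF value was −0.94 without TF replicate 3 and passed (adjusted p of 0.0213). Cd163 was at −2.27 in DF (adjusted p of 0.00175), −0.03 in TF (adjusted p of 0.964) and −0.79 in TFD (adjusted p of 0.227), and without TF replicate 3 its TF value was −0.39 (adjusted p of 0.459). Both were lower in DF than in TF, by −2.56 (adjusted p of 0.0100) and −2.24 (adjusted p of 0.0133), and without TF replicate 3 by −1.75 (adjusted p of 0.00886) and −1.88 (adjusted p of 0.0307). The iron exporter gene Slc40a1 fell by 0.96, 1.16 and 1.02 in DF, TF and TFD, and Hmox1, which encodes a heme-degrading enzyme, by 1.10, 1.28 and 0.98. DF and TF differed by 0.20 for Slc40a1 (adjusted p of 0.602) and 0.18 for Hmox1 (adjusted p of 0.633).

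Among general macrophage genes more rose than fell, as over all genes, of which 21.0%, 19.0% and 14.7% rose and 16.6%, 15.6% and 11.6% fell in DF, TF and TFD. Of 17 surface and lysosomal genes, 8 rose and none fell in DF, 8 rose and 2 fell in TF, and 7 rose and 1 fell in TFD. Trem2, a lipid-sensing receptor, rose by 1.91, 1.31 and 1.60 (adjusted p of 0.000109, 0.00194 and 0.00104). Lyve1, a hyaluronan receptor of some tissue macrophages, fell by 1.3 in TF (adjusted p of 0.0328) and 1.40 in TFD (adjusted p of 0.0497), and was at −0.74 in DF (adjusted p of 0.173). Its call in TFD was lost in 12 of 19 alternative fits and its call in TF in 5. Of 16 macrophage transcription factors, 8 rose and 2 fell in DF, and 7 rose and 1 fell in each of TF and TFD. Irf8, which directs monocyte development, rose by 1.31, 1.71 and 1.43 (adjusted p of 1.57e-05, 2.04e-06 and 1.75e-05), and Id3, which Kupffer cells of the liver need, fell by 2.35, 2.15 and 2.11 (adjusted p of 0.000394, 0.000833 and 0.00238).

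Markers of several other cell types also differed from WT. Among all genes 21.0%, 19.0% and 14.7% rose and 16.6%, 15.6% and 11.6% fell in DF, TF and TFD. In DF against TF, 4.27% of all genes were called lower, and without TF replicate 3 2.80% were called in either direction. Of 11 erythroid markers, 11 fell in DF, 9 in TF and 10 in TFD, with Tfrc at −1.60, −0.89 and −1.38 and Ermap at −4.69, −1.84 and −2.60. In DF against TF, 10 of the 11 were called lower, and 9 without TF replicate 3. The TF values were −1.296 for Tfrc and −2.91 for Ermap when TF replicate 3 was left out. Tfrc lost its TF call without WT replicate 2, WT replicate 3, TF replicate 1 or TF replicate 2 (adjusted p up to 0.0780). The summed level of the 11 markers was 1749 to 2305 CPM in WT, 309 to 446 CPM in DF, 613 to 1735 CPM in TF and 598 to 735 CPM in TFD, and none of the 11 was at 0 in any library. TF replicate 3, which was high in C1q, was also high in erythroid markers. DF libraries were lowest in both sums. Of 7 classical monocyte markers, 6 rose in DF, 5 rose and 1 fell in TF, and 4 rose in TFD, with Ccr2 at 2.47, 2.62 and 2.35 and Chil3 at 0.57, −0.65 and −0.48 (in TF −0.56, adjusted p of 0.0565, without TF replicate 3). The DF call of Chil3 was lost in 6 of 19 alternative fits (adjusted p up to 0.146) and its TF call in 3. The sum of the 7 markers was 5799 to 7494 CPM in WT, 13470 to 14740 CPM in DF, 8113 to 10770 CPM in TF and 9333 to 11240 CPM in TFD, and no tested marker was at 0. Of 8 eosinophil markers, which matter for Adgre1, 2 rose and 2 fell in DF, 2 rose and 2 fell in TF, and 2 fell in TFD. Their sum was 289 to 378 CPM in WT and 216 to 657 CPM in the mutant groups, ranges that overlapped, and does not show these changes. Of 8 dendritic cell markers, 1 rose and 2 fell in DF, 6 rose in TF, and 4 rose and 1 fell in TFD. In DF against TF, 6 of the 8 were called lower, and 5 without TF replicate 3. Their sum, at 129 to 139 CPM in WT, 75.9 to 147 CPM in DF, 226 to 546 CPM in TF and 142 to 320 CPM in TFD, does not show the 2 that fell in DF, Siglech (−6.29, adjusted p of 0.000272) and Zbtb46 (−2.46, adjusted p of 0.000604). Of 11 endothelial and stromal markers, 2 rose and 2 fell in DF, close to the shares over all genes. In TF 3 rose and in TFD 2 rose, with sums of 54.0 to 78.7 CPM in WT and 54.8 to 108 CPM in the mutant groups. Those that fell in DF were Cdh5 (−2.11, adjusted p of 0.0158, and up to 0.0646 without DF replicate 1 or 2) and Stab2 (−2.1, adjusted p of 0.000743), and both were called lower in DF than in TF, but not without TF replicate 3. Megakaryocyte markers summed to 63.1 to 87.8 CPM in WT, above DF (44.3 to 54.8 CPM) and TF (38.8 to 61.1 CPM), and to 52.0 and 157 CPM in TFD. Of these 6, Vwf (−1.13, adjusted p of 0.00281) and Pf4 (−1.16, adjusted p of 0.0383, and above the threshold without WT replicate 1, WT replicate 3 or any 1 DF library) fell in DF, 1 fell in TF, and 1 rose in TFD. These 6 markers (Siglech, Zbtb46, Cdh5, Stab2, Vwf and Pf4) were chosen after their values were seen. Of 8 B cell markers, 8 fell in each mutant group, with medians of −6.35, −4.24 and −6.20, and their sum was 456 to 556 CPM in WT and 14.97 to 81.9 CPM in the mutant groups. Of 8 T and NK cell markers, 5 fell in DF, 2 in TF and 3 in TFD, and none rose. Neutrophil markers summed to 50210 to 62910 CPM in WT and 56660 to 80220 CPM in DF, while each TF library (35740 to 46050 CPM) and TFD library (22260 to 44990 CPM) lay below WT. Of the 9 tested, none passed in DF, 3 fell in TF and 1 in TFD, and 9 of 9 had higher values in DF than in TF, none of which passed. The part of these cell types in the changes of the 9 genes was not tested.

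**Figure D4:**
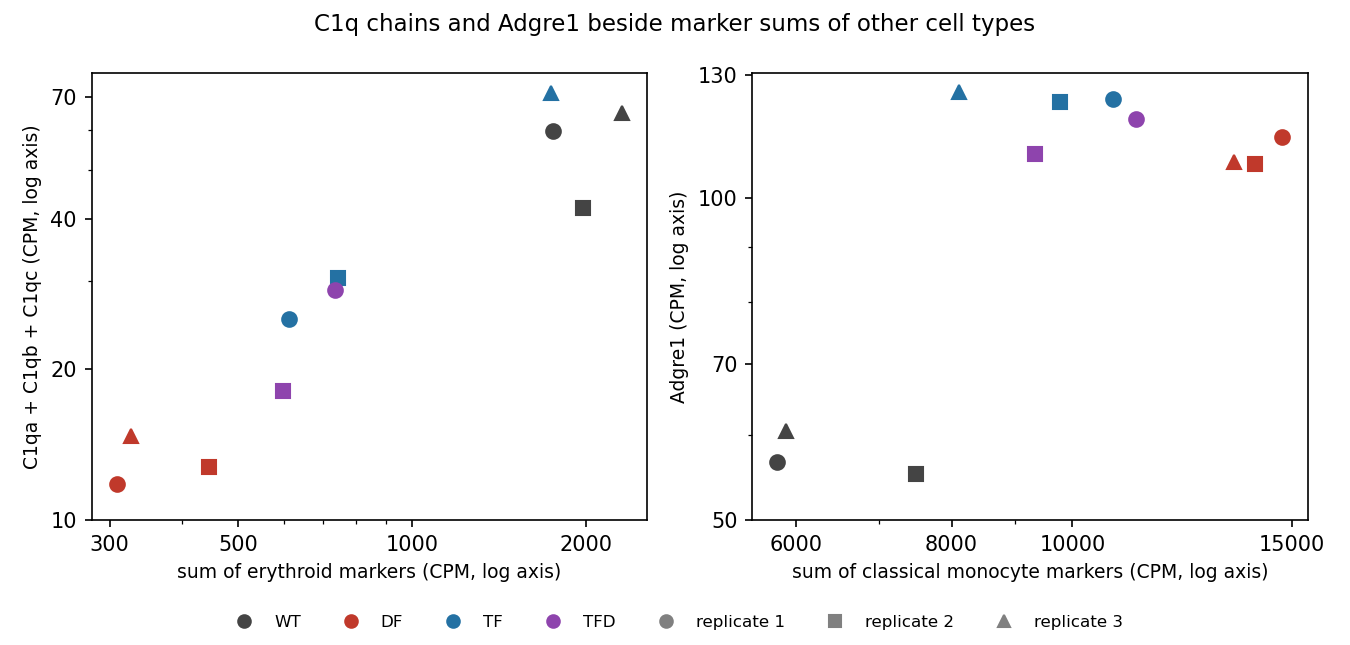
Left, summed CPM of C1qa, C1qb and C1qc against the summed CPM of 11 erythroid markers, and right, CPM of Adgre1 against the summed CPM of 7 classical monocyte markers, both axes on log scales, 1 point per library. The 3 DF libraries sit lowest on the left, at 11.8 to 14.8 CPM of C1q, TF replicate 3 sits above every WT library in C1q, at 71.3 CPM, and just below the lowest in erythroid markers, and on the right all mutant libraries lie above WT on both axes.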

How the data were processed

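Bone marrow RNA, depleted of globin mRNA and prepared with a stranded total RNA kit, was sequenced, and 11 libraries were analysed here. The authors used STAR with mm10, assigned uniquely aligned reads to genes with featureCounts and kept genes above 0.5 CPM in more than 3 samples. The deposited counts are unscaled numbers of reads. The log2 values that the authors deposited are log2 CPM, which edgeR gave from the counts with a prior of 0.25 to within 4.999e-09. The gene length in bases is another deposited column. Tool versions and strand setting are not given in the sources used here.

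Counts were scaled with TMM factors and tested in R 4.3.3 with edgeR 4.0.16 by the quasi-likelihood F test, with 1 mean per genotype over all 11 libraries. Genes above 0.5 CPM in more than 3 libraries were tested (12175, with 24 left out), with Benjamini-Hochberg adjustment over them and a threshold of 0.05. SEs came from the F statistic. CPM and RPKM used the same factors and the deposited lengths. DESeq2 1.42.0, other scalings, filters and models, a replicate block and each library left out were alternatives. The code was tested on simulated data. Plots were made in matplotlib 3.10.9.

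The 9 genes and all gene lists were chosen with earlier results of these data known. From each list the text names the genes with the highest and lowest mean log2 fold change over the 3 mutant groups, among cell types only for erythroid and monocyte markers, and for each gene examined the 3 most similar by Pearson's r (5 for the C1q mean). Library numbers name mice, so p-values measure how mice of a genotype differ. Promoter windows are RefSeq's on GRCm38.p6, set against the exons of GENCODE.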

Additional observations from a re-analysis of the deposited data

Results flagged for a closer look

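In 5 genes the change against WT differed between DF and TF, by the test of DF against TF itself (edgeR's quasi-likelihood test with Benjamini-Hochberg adjustment). The log2 difference of DF from TF was −1.99 for C1qa, −1.48 for C1qb, −1.66 for C1qc, −1.85 for Mertk and −1.27 for Mrc1. For C1qa, C1qb, C1qc and Mertk the 3 DF libraries lay below each TF library, and TF replicate 3 lay above the WT range for C1qa and C1qc and within it for C1qb and Mertk, while for Mrc1 the TF libraries lay above WT and DF overlapped it. TF replicate 3 had an erythroid marker sum of 1735 CPM and the other TF libraries 613 and 744 CPM, and its part in these differences was not tested. Without it the values were −1.28 for C1qa, −0.92 for C1qb and −1.12 for C1qc, which passed, and −1.37 for Mertk and −1.11 for Mrc1, which did not.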

How the results depend on the processing

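Over the 9 genes and 6 comparisons, 943 of 1026 alternative values kept direction and side of the threshold, 37 fell short of it, 36 newly passed it and 10 changed sign. The number of the 9 genes called in DF against WT was 8 in 18 of the 19 alternatives and 9 with the Xist term, and 0 in TF against TFD in all 19. Leaving out 1 library moved it between 3 and 9 in TF (4 with all, 9 without TF replicate 3; 23.4% to 37.1% of all genes), between 2 and 9 in TFD (6 with all; 19.4% to 28.6%), between 0 and 7 in DF against TF (5 with all; 1.39% to 7.66%) and between 0 and 3 in DF against TFD (0 with all; 0.0% to 3.15%). In DF against TFD it was 2 in a model of only these groups (1.11% of all genes), 1 with DESeq2 (2.12%) and 1 with the replicate block (0.345%). The replicate numbers do not pair the mice (same-numbered libraries correlated at a median of 0.03 in their deviations, range −0.30 to 0.25, with 3 of 15 above 0.1), and the replicate block gave 8, 4 and 5 calls in DF, TF and TFD against WT (36.9%, 34.2% and 22.4% of all genes) and 6 in DF against TF (4.93%), with Axl and Cd5l gained and Mrc1 lost. Signs turned, with no value of the new sign past the threshold, when 1 library was left out for Axl (−0.982 to 0.038), Siglec1 (−0.936 to 0.234) and Cd163 (−0.393 to 0.247) in TF, for Dnmt3a in DF (−0.417 to 0.007, and 0.004 with the Xist term), and in TF against TFD for Axl (−0.263 to 0.757), Spic (−0.278 to 0.679), Mrc1 (−0.915 to 0.393) and Cd5l (−1.528 to 0.480). Cd5l in TF against TFD was also 0.022 in a model of only these groups and 0.040 with DESeq2. The causes were not tested. Another scaling moved the median of all genes by at most 0.093. Depth limits Cd5l and Spic most, with 3 to 4 and 5 to 15 reads per DF library.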
